A study of Mus musculus with 15 samples.

Results

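A set of 10 genes known from the stomach was followed in the small intestine of mouse embryos: the mucin genes Muc6 and Muc5ac, the trefoil factor genes Tff1 and Tff2, the gastrokine genes Gkn1, Gkn2 and Gkn3, the stomach claudin gene Cldn18, and Sox2 and Barx1, which encode transcription factors of the developing stomach. They are 10 of the 36528 gene IDs counted in each library, found by gene symbol, and Muc6 and Tff2 were picked because earlier results of these libraries showed them marking some of them. RNA was sequenced at E16.5 (late in mouse gestation) in 15 libraries of 3 genotypes with 5 libraries each. The C362A group carried a Casp8 knockin in which the active-site cysteine of caspase-8, a protease that starts apoptosis downstream of death receptors, is replaced by alanine. The knockout group lacked Casp8, and the wildtype group kept it. All 3 groups, wildtype included, were also Mlkl knockouts and so lacked the pseudokinase that carries out necroptosis. The labels mark the tissue of the C362A libraries as inflamed and that of the knockout and wildtype libraries as normal, so genotype and this mark cannot be told apart. They name no litter, sex or library batch, and do not say whether each library came from its own embryo, so a p-value here measures the spread between these libraries, which may be technical in part.

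The gut tube is patterned along its length before its epithelium matures. Sox2 is high in the foregut and stomach and Cdx2 in the intestine, while Barx1 in the stomach mesenchyme favours a stomach fate in the epithelium above it by holding back Wnt signalling. The lining of the mature stomach is covered by mucus: Muc5ac and Tff1 come from surface cells, Muc6 and Tff2 from gland mucous cells, and gastrokines are secreted by surface and gland mucous cells. The intestine has its own pair in Muc2 and Tff3, the products of goblet cells.

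The libraries held 31896399 to 38532127 counts, and 22295 to 24039 genes had a count. Casp8 averaged 69.9 ± 3.41 CPM in the C362A libraries, 14.4 ± 1.65 CPM in the knockout libraries and 70.1 ± 5.97 CPM in the wildtype libraries (SD, n = 5 each; CPM is counts per 1e+06 counts, scaled by TMM factors). The intestinal label held in every library: Cdx2 averaged 260 ± 12.6 CPM in the C362A libraries, 257 ± 38.1 CPM in the knockout libraries and 273 ± 19.6 CPM in the wildtype libraries, and Tff3 had between 5698 and 12773 counts. Libraries stood apart in other ways. Hoxa13 and Hoxd13, genes of the hindgut, had 0 counts in C362A replicate 1 and in knockout replicate 4, and the squamous genes Krt4, Krt5, Krt13 and Krt15 were high in C362A replicate 4 alone. These genes, like the other marker genes given library by library below, were chosen after their values were seen.

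All 10 stomach genes were scarce. Per transcript length, in the size-factor-adjusted RPKM that the authors deposited, the median level over the 15 libraries was 1.67 RPKM for Tff1, 0.769 for Sox2, 0.762 for Tff2, 0.482 for Gkn3, 0.188 for Barx1 and 0.108 for Cldn18. It was 0.0373 RPKM for Gkn2, 0.0251 for Gkn1, 0.019 for Muc6 and 0 for Muc5ac. Cdx2, for scale, averaged 118 ± 5.95 RPKM in C362A, 117 ± 17.8 RPKM in knockout and 124 ± 9.18 RPKM in wildtype libraries (SD, n = 5 each). Neighbours in this order did not separate: Tff1 ran over 0 to 6.8 RPKM, Sox2 over 0.404 to 2.14, Tff2 over 0.265 to 11.1 and Gkn3 over 0.13 to 4.52. The lower ranges overlapped too, at 0.0763 to 1.37 RPKM for Barx1, 0.0196 to 0.733 for Cldn18 and 0 to 0.377 for Muc6. Because these are whole-tissue libraries, fewer cells expressing a gene and less RNA per cell cannot be told apart.

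Most of the members lie in small clusters of related genes. On GRCm38.p6, the 3 gastrokine genes share 43.3 kb at chr6:87345653-87388935, and Tff1, Tff2 and the intestinal Tff3 share 39.8 kb at chr17:31125306-31165060. Muc6 and Muc5ac lie with Muc2 and Muc5b in 240 kb at chr7:141633459-141873089, while Cldn18 (chr9:99690796-99717267), Sox2 (chr3:34649995-34652461) and Barx1 (chr13:48663036-48666507) stand alone. RefSeq promoter windows of 300 bases (250 before and 50 from the start site, GRCm38.p6) were matched for 7 members, with a pair of start sites for Cldn18. Shown are Muc6 and Gkn3, which were high in the same libraries, and Gkn1 and Gkn2, the neighbours of Gkn3 that stayed near 0; capitals mark the motifs AGATAA and TATAAA, on either strand.
Muc6, chr7:141655344-141655643, minus strand: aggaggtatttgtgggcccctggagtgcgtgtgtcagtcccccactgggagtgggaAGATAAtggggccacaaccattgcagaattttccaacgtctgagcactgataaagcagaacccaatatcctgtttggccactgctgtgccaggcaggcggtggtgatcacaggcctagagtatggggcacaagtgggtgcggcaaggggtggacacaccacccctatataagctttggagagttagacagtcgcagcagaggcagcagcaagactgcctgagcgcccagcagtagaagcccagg
Gkn3, chr6:87388886-87389185, minus strand: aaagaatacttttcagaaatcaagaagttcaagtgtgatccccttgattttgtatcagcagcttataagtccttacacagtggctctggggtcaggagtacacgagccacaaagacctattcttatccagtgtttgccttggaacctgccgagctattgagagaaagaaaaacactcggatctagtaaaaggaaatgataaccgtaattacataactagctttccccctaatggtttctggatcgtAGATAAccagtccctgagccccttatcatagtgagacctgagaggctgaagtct
Gkn1, chr6:87350866-87351165, minus strand: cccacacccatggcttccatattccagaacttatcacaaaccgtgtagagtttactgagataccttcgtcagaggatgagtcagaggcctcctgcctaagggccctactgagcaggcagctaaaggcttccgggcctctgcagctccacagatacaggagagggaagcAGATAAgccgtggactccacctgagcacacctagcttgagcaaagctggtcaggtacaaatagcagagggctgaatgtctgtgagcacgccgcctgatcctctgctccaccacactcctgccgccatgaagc
Gkn2, chr6:87373115-87373414, plus strand: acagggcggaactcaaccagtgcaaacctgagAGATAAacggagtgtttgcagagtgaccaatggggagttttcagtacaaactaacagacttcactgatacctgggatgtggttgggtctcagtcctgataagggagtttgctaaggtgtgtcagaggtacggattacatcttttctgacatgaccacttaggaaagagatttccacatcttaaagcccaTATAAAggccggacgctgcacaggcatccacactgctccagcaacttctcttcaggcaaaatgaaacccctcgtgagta
The letters AGATAA, the core bound by GATA factors, were found once in each of these windows, although 11.2% of all 32851 promoter windows hold them on one strand or the other. They begin 194 bases before the start site in Muc6, 4 bases before it in Gkn3, 82 in Gkn1 and 218 in Gkn2. Gkn2 also holds the TATA box letters TATAAA, found in 13.6% of all windows. The first Cldn18 window holds AGATAA on both strands, and the second one, Sox2 and Barx1 hold neither motif. The letters TGTTTAC of forkhead factors and ACAATG of SOX factors, in 3.65% and 12.6% of all windows, were in none of the members' windows, and no searched motif overlapped another in the windows printed. Gkn3, which was counted in every library, and Gkn1 and Gkn2, which were not, thus share the GATA letters.

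Muc6, which encodes the gel-forming mucin of gastric glands, had 5, 5, 1, 10 and 1 counts in C362A replicates 1 to 5, 4, 112, 5, 0 and 10 counts in knockout replicates 1 to 5, and 7, 62, 104, 90 and 1 counts in wildtype replicates 1 to 5. Knockout replicate 2 and wildtype replicates 2, 3 and 4 stood far above the remaining 11 libraries, all of which had 10 counts or fewer, and the genotypes overlapped. Muc6 averaged 0.128 ± 0.107 CPM in the C362A libraries, 0.71 ± 1.31 CPM in the knockout libraries and 1.59 ± 1.46 CPM in the wildtype libraries (SD, n = 5 each). The fitted log2 difference was -3.58 (SE 1.33) for C362A against wildtype, -1.14 (SE 1.09) for knockout against wildtype and -2.44 (SE 1.36) for C362A against knockout. As Muc6 was chosen on these libraries, these are descriptions with no test. On log2(RPKM + 0.1), which understates changes of low genes, it was -1.08 for C362A against wildtype and -0.40 for C362A against knockout, and with limma-voom -2.53 and -0.84. Without knockout replicate 2 the difference was -3.57 for knockout against wildtype and -0.01 for C362A against knockout.

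Tff2, the trefoil peptide secreted with Muc6, had 33, 7, 8, 18 and 15 counts in C362A replicates 1 to 5, 8, 124, 18, 14 and 6 counts in knockout replicates 1 to 5, and 7, 68, 155, 198 and 11 counts in wildtype replicates 1 to 5. Its highest 4 libraries were those of Muc6, followed by C362A replicate 1. Tff2 averaged 0.486 ± 0.333 CPM in the C362A libraries, 0.933 ± 1.37 CPM in the knockout libraries and 2.69 ± 2.77 CPM in the wildtype libraries (SD, n = 5 each), and the genotypes overlapped. The log2 difference, also given with no test, was -2.46 (SE 1.02) for C362A against wildtype, -1.51 (SE 0.95) for knockout against wildtype and -0.95 (SE 1.04) for C362A against knockout. Without knockout replicate 2 it was -3.04 for knockout against wildtype and 0.58 for C362A against knockout.

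**Figure D1:**
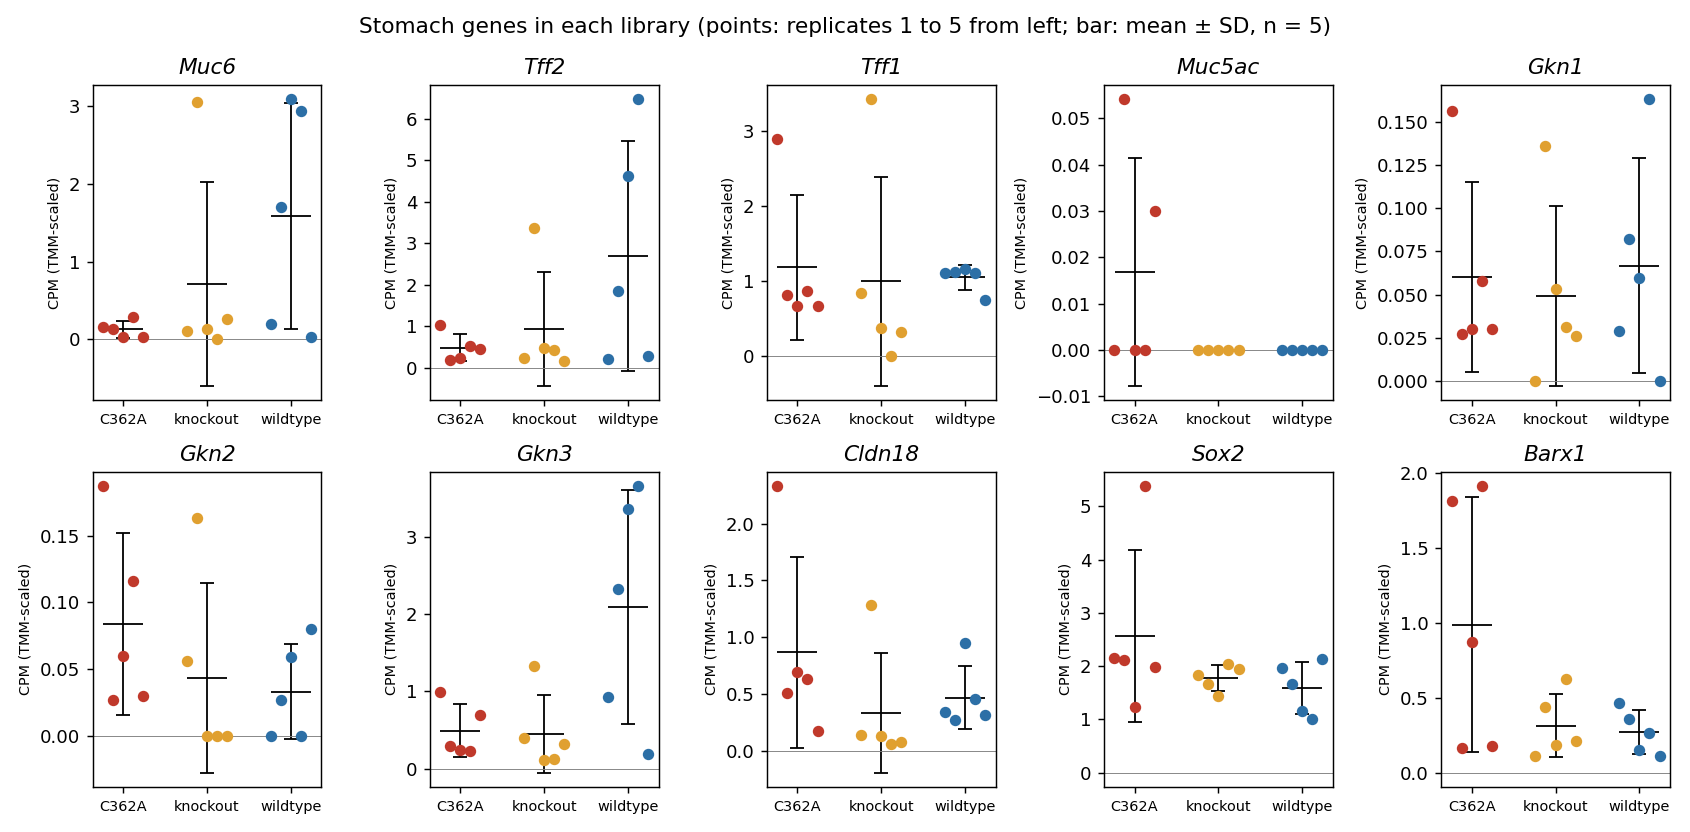
CPM (vertical axis, scaled by TMM factors, one scale per panel) of the 10 stomach genes in C362A, knockout and wildtype libraries, with 1 point per library in replicate order and bars for the mean ± SD (n = 5). Muc6, Tff2 and Gkn3 are high in knockout replicate 2 and wildtype replicates 2, 3 and 4, Sox2 in C362A replicate 4, and Barx1 in C362A replicates 1, 3 and 4.

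Gkn3, a gastrokine known in mouse from gastric mucous neck cells, had 32, 11, 8, 8 and 23 counts in C362A replicates 1 to 5, 14, 49, 4, 4 and 12 counts in knockout replicates 1 to 5, and 32, 85, 113, 112 and 7 counts in wildtype replicates 1 to 5. The same 4 libraries were again highest, and wildtype replicate 5 lay among the low ones. Gkn3 averaged 0.491 ± 0.34 CPM in the C362A libraries, 0.454 ± 0.506 CPM in the knockout libraries and 2.09 ± 1.51 CPM in the wildtype libraries (SD, n = 5 each). The log2 difference was -2.09 (SE 0.75, edgeR quasi-likelihood test with Benjamini-Hochberg adjusted p = 0.285) for C362A against wildtype and -2.18 (SE 0.75, edgeR adjusted p = 1.0) for knockout against wildtype, comparisons that share the wildtype libraries. Neither passed the threshold of 0.05. For C362A against knockout it was 0.10 (SE 0.80, edgeR adjusted p = 0.967), and without knockout replicate 2 it was 1.04.

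These 3 genes thus shared their highest libraries, but Muc6 and Tff2 were picked for marking some libraries. Of 18369 other genes past the filter on low counts, 32 (0.174%) had the same highest 4 libraries as Tff2. These 32 include Muc6 and Gkn3, and the share is a description with no test. Among the 18 other gastric epithelium genes that passed the filter, 1 had these highest libraries, Cym. Cym, which encodes the milk-clotting protease chymosin, had 698 counts in knockout replicate 2 and 862, 789 and 1015 counts in wildtype replicates 2, 3 and 4, against at most 578 in the other libraries. Knockout replicate 2 and wildtype replicate 3 have sample ID numbers from the lower of 2 sets, and wildtype replicates 2 and 4 from the higher one. The summed level of 16 intestinal epithelium genes was highest in 3 of these libraries, at 11800 CPM in knockout replicate 2 and 12200 and 18800 CPM in wildtype replicates 3 and 4, while wildtype replicate 2 had 9750 CPM. It ranged over 4360 to 8940 CPM in the C362A libraries, 9380 to 11800 CPM in the knockout libraries and 5910 to 18800 CPM in the wildtype libraries, with no gene of that list at 0 in a whole group, and its part in the members' levels was not tested. The sum of 13 proximal intestine genes was 3610 CPM in knockout replicate 2 and 3300, 3770 and 5250 CPM in wildtype replicates 2, 3 and 4. C362A replicate 5 had 3750 CPM and knockout replicate 4 had 3620 CPM. The part of the proximal genes was not tested either.

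Nkx6-3, which encodes a homeodomain factor of the gastric antrum, marked an overlapping but larger set of libraries. Its counts were 167, 0, 2, 66 and 77 in C362A replicates 1 to 5, 0, 195, 2, 4 and 74 in knockout replicates 1 to 5, and 1, 186, 128, 184 and 23 in wildtype replicates 1 to 5. All 4 libraries high in Muc6 had at least 128 counts, but so did C362A replicate 1, which had 5 counts of Muc6. Nkx6-3 was also among the 5 genes most like Tff2 over the 15 libraries, by Spearman's rho of log2 CPM among 15699 genes with a mean of at least 1 CPM. These were Reg1 (rho 0.84), Hes6 (0.82), Pdx1 (0.80), Smim6 (0.79) and Nkx6-3 (0.79). Pdx1 encodes a factor of the antrum, duodenum and pancreas. The genes most like Muc6 were Card6 (0.79), Mast2 (0.78), Rasal3 (0.78), Mfsd2b (0.77) and Farp2 (0.75). Of the 4 highest libraries of Muc6, Card6, Mfsd2b and Farp2 shared 3, and Mast2 and Rasal3 shared 2. Muc6 had few counts in most libraries, so many of its ranks rest on small differences. Such rankings, here and below for Sox2 and Barx1, pick the highest rho among many genes and are descriptions with no test. Muc6 and Tff2 had a rho of 0.56 and a Pearson's r of 0.85 with each other over the 15 libraries, over points that share genotypes and library depth, as the scatter plots of gene pairs show. Gkn1, below the floor of 1 CPM, had a rho of 0.88 and a Pearson's r of 0.79 with Tff2, on at most 5 counts in a library.

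**Figure D2:**
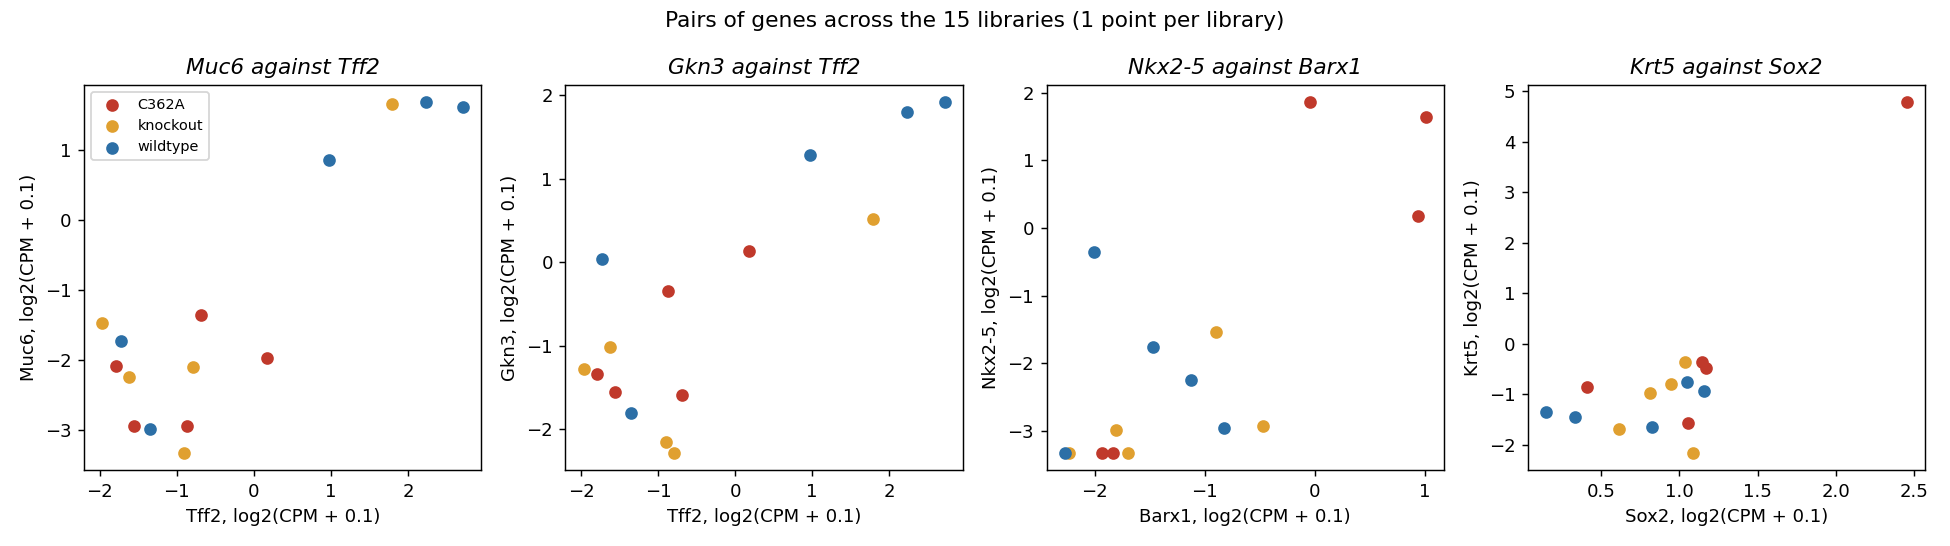
Each panel sets the level of a gene against that of another, both as log2(CPM + 0.1), with 1 point for each of the 15 libraries coloured by genotype (C362A, knockout, wildtype). The same 4 libraries lie apart for Muc6 and Gkn3 against Tff2, 3 C362A libraries lie highest for Barx1, and C362A replicate 4 lies alone for Krt5 against Sox2.

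Tff1, the trefoil peptide of surface mucous cells, was spread differently from its neighbour Tff2. It had 93, 30, 22, 30 and 22 counts in C362A replicates 1 to 5, 30, 126, 14, 0 and 12 counts in knockout replicates 1 to 5, and 38, 41, 39, 34 and 28 counts in wildtype replicates 1 to 5. C362A replicate 1 and knockout replicate 2 stood above all others, while the wildtype libraries were close together. Tff1 averaged 1.18 ± 0.964 CPM in the C362A libraries, 0.991 ± 1.39 CPM in the knockout libraries and 1.05 ± 0.17 CPM in the wildtype libraries (SD, n = 5 each). The log2 difference was 0.17 (SE 0.76, edgeR adjusted p = 0.929) for C362A against wildtype, -0.07 (SE 0.76, edgeR adjusted p = 1.0) for knockout against wildtype and 0.24 (SE 0.76, edgeR adjusted p = 0.901) for C362A against knockout. The sign of each turned round when 1 library was left out: without C362A replicate 1 the values for C362A were -0.48 against wildtype and -0.40 against knockout, and without knockout replicate 4 that of knockout against wildtype was 0.24.

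Cldn18, which encodes a tight junction claudin with a stomach isoform and a lung isoform, had 75, 19, 23, 22 and 6 counts in C362A replicates 1 to 5, 5, 47, 5, 2 and 3 counts in knockout replicates 1 to 5, and 12, 10, 32, 14 and 12 counts in wildtype replicates 1 to 5. The highest libraries were C362A replicate 1 and knockout replicate 2, as for Tff1. The rho of Tff1 over the 15 libraries was 0.77 with Cldn18, 0.77 with Gkn3, 0.73 with Muc6 and 0.62 with Tff2, so by this measure Tff1 was no closer to Cldn18 than to Gkn3. Of lung genes, Nkx2-1 had 0 counts in all 15 libraries and the surfactant gene Sftpb 0 to 7, with 6 in C362A replicate 1 and 2 in knockout replicate 2, and their part in the Cldn18 level was not tested. Cldn18 averaged 0.871 ± 0.842 CPM in the C362A libraries, 0.338 ± 0.527 CPM in the knockout libraries and 0.47 ± 0.278 CPM in the wildtype libraries (SD, n = 5 each). The log2 difference was 0.88 (SE 0.76, edgeR adjusted p = 0.549) for C362A against wildtype, -0.45 (SE 0.80, edgeR adjusted p = 1.0) for knockout against wildtype and 1.34 (SE 0.78, edgeR adjusted p = 0.428) for C362A against knockout. Without C362A replicate 1 the first was 0.11, and without knockout replicate 2 the other two were -2.13 and 3.02.

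C362A replicate 1, highest in Cldn18 and second in Tff1, had 0 counts of Hoxa13 and Hoxd13 and 1 count of Hoxd10, and knockout replicate 4 had 0 counts of all 3 genes. Knockout replicate 4 was at the other end for some of the members, with 0 counts of Muc6 and of Tff1 and 2 of Cldn18. It had 14 counts of Tff2, within the range of the other libraries. A count of 0 allows up to 3 counts, which is 0.0779 to 0.0941 CPM at these depths (counting error only). The pair that lacked posterior Hox counts therefore differed in Tff1 and Cldn18. Sox2 was alike in them, at 2.15 CPM in C362A replicate 1 and 2.03 CPM in knockout replicate 4. Barx1 was 1.81 CPM in the first and 0.623 CPM in the second.

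Muc5ac, Gkn1 and Gkn2 did not pass the filter on low counts and were not tested. Muc5ac, the gel-forming mucin of the gastric surface, had 2 counts in C362A replicate 2, 1 in C362A replicate 5 and 0 in the other 13 libraries. Gkn1, a gastrokine of surface mucous cells, had 5, 1, 1, 2 and 1 counts in C362A replicates 1 to 5, 0, 5, 2, 1 and 1 counts in knockout replicates 1 to 5, and 1, 3, 2, 5 and 0 counts in wildtype replicates 1 to 5. Gkn2, whose human protein binds that of TFF1, had 6, 1, 2, 4 and 1 counts in C362A replicates 1 to 5, 2, 6, 0, 0 and 0 counts in knockout replicates 1 to 5, and 0, 1, 2, 0 and 3 counts in wildtype replicates 1 to 5. The largest counts of both gastrokines, 5 or 6, included C362A replicate 1 and knockout replicate 2, and differences between genotypes were not detectable at this depth. Tff1, made by the same surface cells in the adult, had by contrast 559 counts over the 15 libraries. Over the same libraries Gkn1 had 30, Gkn2 had 28 and Muc5ac had 3.

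Sox2, the foregut transcription factor gene, was counted in every library. It had 69, 78, 41, 186 and 66 counts in C362A replicates 1 to 5, 65, 61, 54, 65 and 75 counts in knockout replicates 1 to 5, and 68, 61, 39, 31 and 80 counts in wildtype replicates 1 to 5. C362A replicate 4 stood alone, and the remaining 14 libraries lay between 31 and 80 counts. Sox2 averaged 2.57 ± 1.62 CPM in the C362A libraries, 1.78 ± 0.239 CPM in the knockout libraries and 1.59 ± 0.49 CPM in the wildtype libraries (SD, n = 5 each). The log2 difference was 0.69 (SE 0.32, edgeR adjusted p = 0.307) for C362A against wildtype, 0.16 (SE 0.32, edgeR adjusted p = 1.0) for knockout against wildtype and 0.53 (SE 0.31, edgeR adjusted p = 0.433) for C362A against knockout. Without C362A replicate 4 those of C362A were 0.23 against wildtype (edgeR adjusted p = 0.709) and 0.07 against knockout (edgeR adjusted p = 0.925).

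The same library held the highest CPM of 10 of 14 listed genes of squamous epithelium, which in the mouse lines the forestomach and esophagus. C362A replicate 4 had 944 counts of Krt5, 2741 of Krt4, 1833 of Krt13, 2833 of Krt15 and 172 of Trp63, where the others had at most 26 of Krt5, 30 of Krt4, 30 of Krt13, 176 of Krt15 and 11 of Trp63. The other 4 listed genes were not highest there: Krt14 had 88 counts in it against up to 205 elsewhere, Ivl 1 against up to 18, Sprr1a 41 against up to 121, and Sbsn 105 against up to 203. The 14 listed squamous genes summed to 270 CPM there. Their sum ranged over 10.2 to 270 CPM in the C362A libraries, 10.3 to 17.4 CPM in the knockout libraries and 12.3 to 18.7 CPM in the wildtype libraries, with 1 of the genes at 0 in all knockout libraries, and their part in the Sox2 level was not tested. Sox2 is also expressed by enteric glia, whose marker Sox10 had 435 to 788 counts in every library. The 5 genes most like Sox2 were Dnajc27 (rho 0.89), Rnmt (0.85), Tspan5 (0.84), Frmd6 (0.84) and Hoxb4 (0.84).

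Barx1, the stomach mesenchyme factor gene, had 58, 6, 29, 66 and 6 counts in C362A replicates 1 to 5, 4, 16, 7, 20 and 8 counts in knockout replicates 1 to 5, and 16, 13, 5, 8 and 4 counts in wildtype replicates 1 to 5. C362A replicates 1, 3 and 4 were highest, while C362A replicates 2 and 5 lay within the range of the knockout and wildtype libraries. Barx1 averaged 0.986 ± 0.847 CPM in the C362A libraries, 0.313 ± 0.211 CPM in the knockout libraries and 0.267 ± 0.147 CPM in the wildtype libraries (SD, n = 5 each). The log2 difference was 1.87 (SE 0.66, edgeR adjusted p = 0.285) for C362A against wildtype, 0.21 (SE 0.71, edgeR adjusted p = 1.0) for knockout against wildtype and 1.66 (SE 0.64, edgeR adjusted p = 0.317) for C362A against knockout. When each library was left out in turn, the difference of C362A against wildtype passed the threshold in 1 fit, without C362A replicate 5 (2.13, edgeR adjusted p = 0.0393, in a range of 0.0393 to 0.654). That fit called 1807 genes in all, against 15 with all libraries.

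The 19 stomach and pylorus patterning genes were not highest in 1 set of libraries. In the C362A group 1 peaked in replicate 1, 4 in replicate 3 and 2 in replicate 4. In the knockout group 1 peaked in replicate 4 and 5 in replicate 5. In the wildtype group 2 peaked in replicate 1, 1 in replicate 3, 2 in replicate 4 and 1 in replicate 5. Six2 (304 counts) and Gata3 (211 counts), genes of the pyloric sphincter, were highest in knockout replicate 5, and Isl1 (155 counts) in wildtype replicate 1. Nkx2-5, another factor gene of the sphincter, had 33, 0, 117, 104 and 0 counts in C362A replicates 1 to 5, 0, 9, 1, 1 and 0 counts in knockout replicates 1 to 5, and 1, 4, 23, 6 and 0 counts in wildtype replicates 1 to 5. Tlx1, needed for the spleen, had 222 and 174 counts in C362A replicates 3 and 4 and at most 10 in any other library. Barx1 was thus high in C362A replicate 1, which had 0 counts of Tlx1 and a squamous sum of 12.7 CPM, in C362A replicate 3, which had Tlx1 and a squamous sum of 10.2 CPM, and in C362A replicate 4, which was high in both. Its highest 3 libraries were also those of 1005 of 18369 other genes (5.47%), and of 3 of 17 stomach and pylorus patterning genes (17.6%): Sfrp1, Tcf21 and Grem1. They were not particular to that list. The same libraries were highest for 2 of 14 enteric neuron and glia genes (14.3%), Ednrb and Tubb3. They were so for 1 of 12 pancreas genes (8.33%), Gcg, and 1 of 16 intestinal epithelium genes (6.25%), Sis. The 5 genes most like Barx1 were Chrm3 (rho 0.88), Rfesd (0.84), Vstm4 (0.83), Idi1 (0.82) and Kcnab2 (0.79). The map of genes by library shows that Muc6, Barx1 and Krt5 were highest in different sets of libraries. Those of Barx1 and Krt5 both include C362A replicate 4, which was also the highest library of Sox2. Sox2 and Barx1 had a rho of 0.19 and a Pearson's r of 0.46 with each other.

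**Figure D3:**
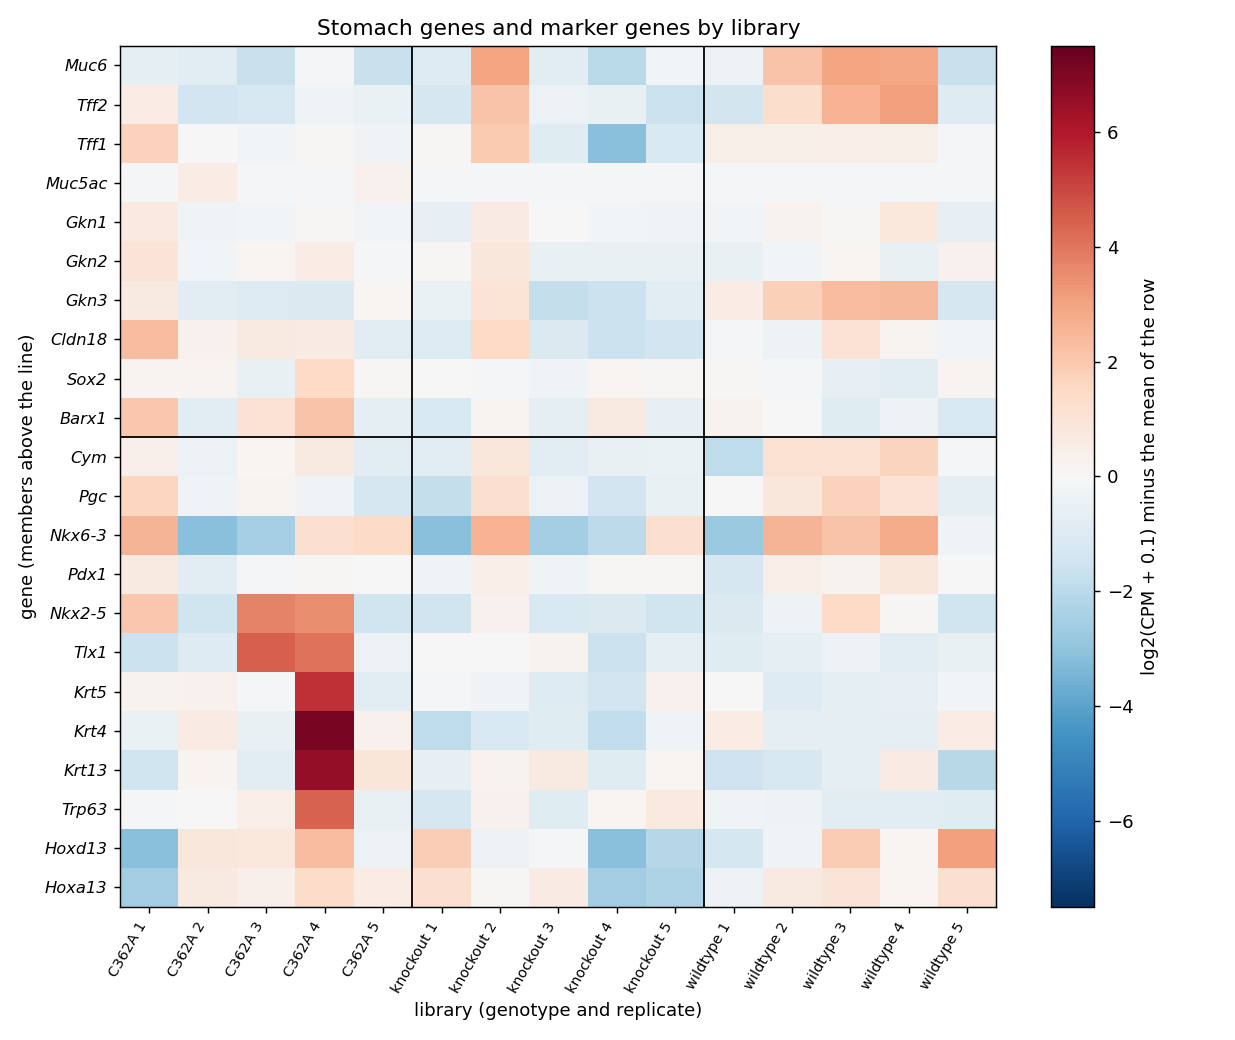
Colour gives log2(CPM + 0.1) minus the mean of the gene over the 15 libraries, for the 10 stomach genes (above the line) and marker genes (below it), with libraries ordered as C362A, knockout and wildtype. Red blocks fall in knockout replicate 2 and wildtype replicates 2, 3 and 4 for Muc6, Tff2 and Gkn3, in C362A replicates 1, 3 and 4 for Barx1 and Nkx2-5, and in C362A replicate 4 for Krt4, Krt5 and Krt13. Nkx2-5 is also above its mean in wildtype replicate 3, at 0.684 CPM against 1.03 CPM in C362A replicate 1.

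No genotype comparison called a tested member. For C362A against wildtype edgeR called 15 of 18370 genes (0.0817%), all of them higher, and 0 of 5 tested members. At an unadjusted p under 0.05, Sox2 and Barx1 were higher and Gkn3 was lower, where 8.08% of all genes were higher and 7.8% lower. For knockout against wildtype it called 7 genes (0.0381%), 5 higher (0.0272%) and 2 lower (0.0109%), and 0 of 5 members. Gkn3 was lower at an unadjusted p under 0.05 and 0 members were higher, where 1.2% of all genes were higher and 1.23% lower. For C362A against knockout it called 2 genes (0.0109%), both higher, and 0 of 5 members. Barx1 was higher at an unadjusted p under 0.05 and 0 members were lower, where 6.49% of all genes were higher and 7.41% lower. DESeq2 and limma-voom also called 0 of the 5 in each comparison. Of the 5 tested members, 0 had groups free of overlap in any of the 3 comparisons. Over all genes tested this share was 1.16% for C362A against wildtype, 0.702% for knockout against wildtype and 2.85% for C362A against knockout, so a count of 0 of 5 lies near the background. The groups of Muc6 and Tff2 overlapped too, but these genes were picked on their library pattern and are not counted here. The standard errors of the members, shown in the plot of fitted differences, ran above 0.6 for all but Sox2.

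**Figure D4:**
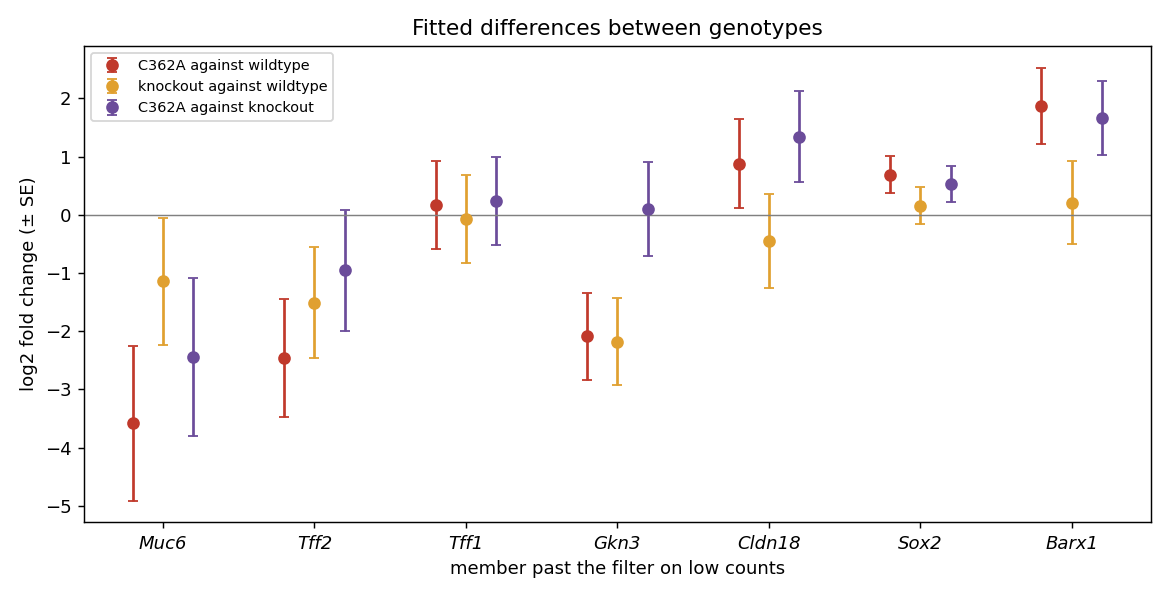
Fitted log2 fold change ± SE (vertical axis) of the 7 stomach genes past the filter on low counts, for C362A against wildtype, knockout against wildtype and C362A against knockout. Muc6 and Tff2 were chosen on these libraries and have no test, and none of the other 5 passed an adjusted p of 0.05.

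No gene of the wider lists was called either, although their medians differed. Of 157 genes in 13 other lists, 130 passed the filter and edgeR called 0 in the 3 comparisons. Without C362A replicate 5 it called 10 of 131 (7.63%) for C362A against wildtype, against 9.76% of all genes tested, and 7 of 131 (5.34%) for C362A against knockout, against 4.35% of all genes. Before adjustment, the edgeR p of these 130 genes was under 0.05 for 10 higher and 15 lower ones in C362A against wildtype. Over all genes tested, 8.08% were higher and 7.8% lower. In knockout against wildtype it was so for 2 higher and 7 lower, where 1.2% of all genes were higher and 1.23% lower. In C362A against knockout it was so for 15 higher and 14 lower, where 6.49% of all genes were higher and 7.41% lower. Among 18 other gastric epithelium genes, with products such as pepsinogens and the proton pump, 6 had a positive and 12 a negative log2 difference for C362A against wildtype, with a median of -0.24 against 0.007 over all genes. For knockout against wildtype these were 2 positive and 16 negative, with a median of -0.25 against -0.005, and for C362A against knockout 11 positive and 7 negative, with a median of 0.14 against 0.014. The 17 stomach and pylorus patterning genes had medians of -0.03, -0.05 and 0.17 in the same 3 comparisons, and the 9 squamous genes 1.71, -0.11 and 1.74, the C362A values resting on a group that includes C362A replicate 4. Of 16 intestinal epithelium genes, 14 were negative for C362A against wildtype (median -0.13). For knockout against wildtype, 11 of 11 liver genes were positive (median 1.01) and 10 of 12 pancreas genes (median 1.08). For C362A against knockout, 0 of 11 liver genes (median -0.88) and 2 of 12 pancreas genes (median -0.98) were positive. The knockout libraries were uneven in both lists. Of the 12 listed liver genes, 10 were highest in knockout replicate 3, where Alb had 586 CPM against 20.0 CPM in knockout replicate 4. Of the 16 listed pancreas genes, 6 were highest in knockout replicate 4 and 5 in knockout replicate 5. Ctrb1 had 127 and 126 CPM in these 2 libraries against 0.795 CPM in knockout replicate 3.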

How the data were processed

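Single-end RNA-seq libraries of 15 samples were compared by the genotype in the labels. Per the submitters' processing notes, reads were aligned with GSNAP to GRCm38; no version or annotation is given in the sources used here. The authors deposited counts of uniquely aligned reads per gene model and RPKM adjusted by a size factor per library, per the file headers. The library kit does not mark strand, so overlapping antisense genes cannot be told apart. RefSeq GRCm38.p6 named 31049 of 36528 IDs. Counts were tested with edgeR 4.0.16 in R 4.3.3 (TMM, filterByExpr with a minimum count of 10 and total of 15, robust quasi-likelihood test, all 15 libraries in 1 fit), Benjamini-Hochberg adjusted over 18370 genes at 0.05. The test was checked on simulated data, with the same spread for all genes and changes only in genes with higher counts. That check does not cover members with low counts that vary widely between libraries. Log2 CPM used a prior count of 2. The depth leaves genes under 1 CPM with few reads per library.

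The members and lists were chosen with earlier results of these data known. The rule named all 10 members, the 5 genes most like each of Muc6, Tff2, Sox2 and Barx1, and Casp8 and Mlkl; Mlkl averaged 0.389 ± 0.261 CPM in the C362A libraries, 0.521 ± 0.119 CPM in the knockout libraries and 0.506 ± 0.179 CPM in the wildtype libraries (SD, n = 5 each). Replicate numbers follow accession order and pair nothing. The 24 alternatives covered scaling, filters, DESeq2 1.42.0, limma 3.58.1 (voom, and log2(RPKM + 0.1)), fits of 2 groups, a block for 2 sets of sample ID numbers, and each library left out.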

Additional observations from a re-analysis of the deposited data

Results flagged for a closer look

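Within a genotype, 11 values lay farther from the nearest other library than Dixon's criterion allows for 5 libraries, of 28 groups checked. Its rate of about 5% of groups holds for normal, independent groups, and these members have low counts and vary together. Muc6 and Tff2 were also picked for marking some libraries, so the flags are a description and no test. Knockout replicate 2 was the high library for 5 members: Muc6 (3.05 CPM), Tff2 (3.37 CPM), Tff1 (3.43 CPM), Gkn3 (1.33 CPM) and Cldn18 (1.28 CPM). C362A replicate 1 was the high library for 3: Tff1 (2.9 CPM), Gkn1 (0.156 CPM) and Cldn18 (2.33 CPM). Sox2 was high in C362A replicate 4 (5.38 CPM) and Cldn18 in wildtype replicate 3 (0.952 CPM), and Tff1 was low in wildtype replicate 5 (0.746 CPM). The Gkn1 value rests on 5 counts.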

How the results depend on the processing

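No paired analysis was possible because the labels give no replicate numbers. Over all alternatives the 5 tested members gave 350 values, of which 335 kept their direction and their side of the threshold, 14 turned round and 1 (Barx1 without C362A replicate 5) newly passed. Tff1 for C362A against wildtype was -0.09 with limma-voom and -0.07 on log2(RPKM + 0.1). Leaving out each library gave -0.48 to 0.32 for Tff1 in C362A against wildtype, -1.44 to 0.24 in knockout against wildtype and -0.40 to 1.60 in C362A against knockout. It gave -0.32 to 1.04 for Gkn3 in C362A against knockout and -0.18 to 0.50 for Barx1 in knockout against wildtype. DESeq2 called 54 genes for C362A against wildtype, 13 for knockout against wildtype and 27 for C362A against knockout. Fits of 2 groups called 1 gene for knockout against wildtype and 4 for C362A against knockout, and limma on log2(RPKM + 0.1) called 4 for the last. Leaving out each library gave 7 to 1807, 1 to 8 and 2 to 805 calls in that order, with 1807 and 805 both without C362A replicate 5, and 0 to 1 member calls; the cause was not tested. Members with few counts are limited by depth.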
